A study of Caenorhabditis elegans with 6 samples.

Results

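The basement membrane genes described here are 10 of the 20447 genes in the count table. They were chosen by gene symbol, though with earlier results of these data known. They encode the type IV collagen chains (*emb-9* and *let-2*), the laminin chains (*epi-1*, *lam-3*, *lam-1* and *lam-2*), nidogen (*nid-1*), perlecan (*unc-52*), collagen XVIII (*cle-1*) and SPARC (*ost-1*). Poly(A)+ RNA of whole *Caenorhabditis elegans* was counted in 6 libraries. *ebax-1(tm2321)* mutants of strain CZ9907 and wild-type worms of strain N2 gave 2 libraries each of starved L1, the first larval stage. *ebax-1(tm2321)* mutants of strain FX02321 and N2 worms gave 1 library each of gravid adults. All worms were raised at 20 °C and synchronized with bleach. L1 larvae had hatched overnight in buffer without food, and adults had grown with food for about 68 h. The mutant strain, feeding and RNA input (10 µg for adults, 3 µg for L1 larvae) changed together with stage, and the study proposes that the *tm2321* line carries a second mutation elsewhere. EBAX-1 is the worm ortholog of ZSWIM8, a ubiquitin ligase receptor through which certain microRNAs are destroyed.

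Basement membranes are thin sheets of extracellular matrix that underlie epithelia and surround muscle, pharynx and gonad. Laminin trimers, each of an alpha, a beta and a gamma chain, form an initial network, and type IV collagen forms a second, covalently cross-linked network that gives the sheet its strength. Nidogen and perlecan bind both networks. In the worm much of the type IV collagen is made by body wall muscle and reaches other tissues through the body cavity. The study points to *emb-9* because its 3′ untranslated region holds a site with extended pairing to miR-43, one of the microRNAs it examines.

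Library totals ran from 10937932 to 21328335 counts. Levels are given as CPM (a gene's counts scaled to a common library size with TMM over all 6 libraries). Where genes are compared with each other, they are given as RPKM, which is CPM per 1000 bases of annotated coding sequence. That length joins all coding transcripts of a gene (16 for *unc-52*, 6 for *epi-1*, 1 for *lam-2*). RPKM is therefore too low where the transcripts present use only part of it. The targeted gene bore out the labels: *ebax-1* stood at 42.9 and 48.7 CPM in mutant L1 larvae, against 79.8 and 77.7 CPM in wild-type L1 larvae, and at 18.4 CPM in mutant adults, against 45.7 CPM in wild-type adults. Summed CPM of 6 yolk protein genes was 42460 in mutant adults and 37960 in wild-type adults, and at most 4.01 in any L1 library, so the stages matched their names. The chi-square per degree of freedom between replicate L1 libraries was 6.45 in mutants and 3.99 in wild type, above counting noise, so they were kept as separate samples.

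In L1 larvae the basement membrane transcripts as a group were abundant and differed little between genotypes. Summed over the 10 genes they made up 4254 and 4461 CPM in *ebax-1* larvae, against 4330 and 4535 CPM in wild-type larvae. Of the 10, 0 rose and 1 fell by edgeR's quasi-likelihood test at an adjusted p of 0.05, where 6.59% of the 13756 genes tested rose and 9.97% fell. The log2 fold changes of the 10 ran from -0.27 to 0.15 with a median of -0.07, and that of all tested genes was 0.00603. An unadjusted p under 0.05 was reached by 1 of the 10.

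**Figure D1:**
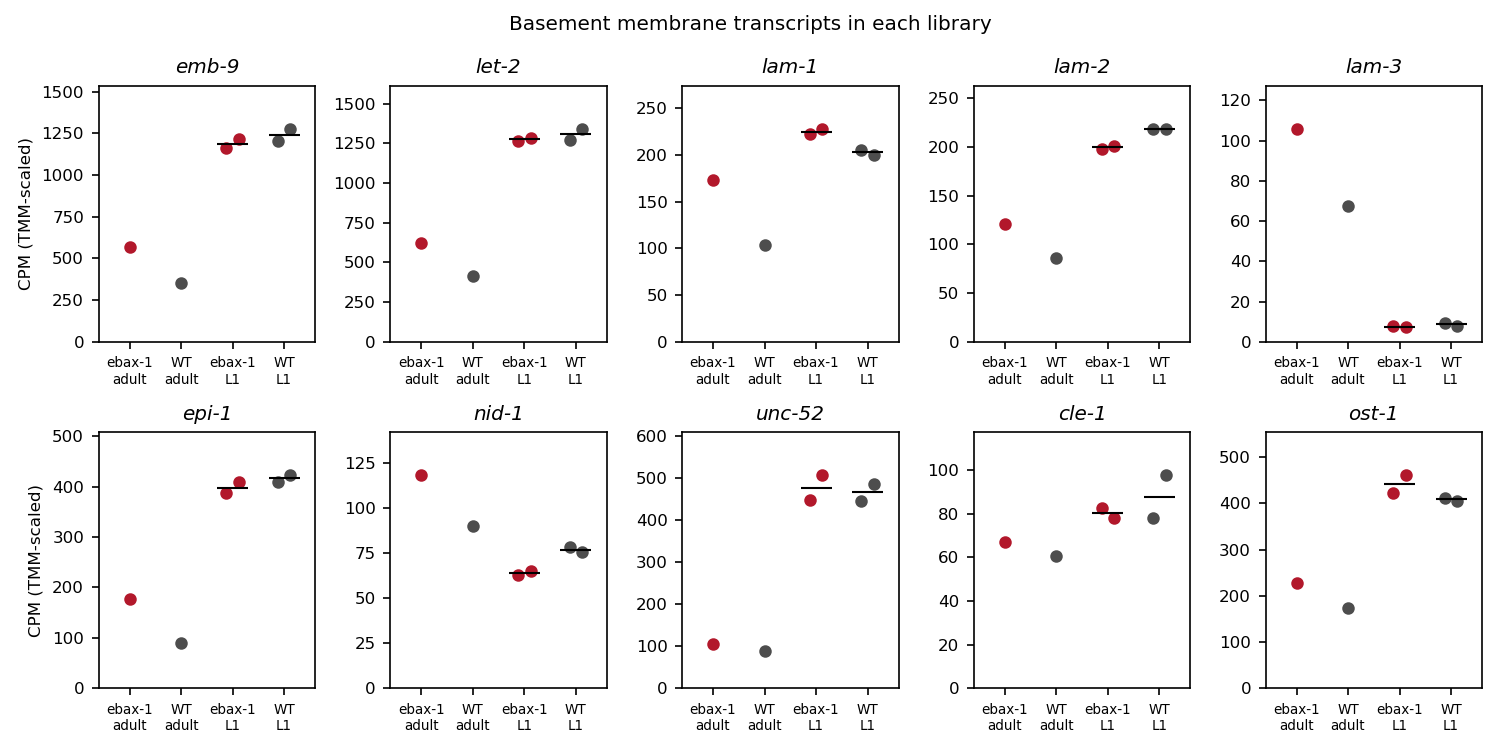
Levels of the 10 basement membrane transcripts in each library, in CPM on axes that start at 0, with a panel per gene. Red points are *ebax-1* libraries, grey points are wild-type libraries, and lines mark means of 2 L1 libraries. In every panel the mutant adult point lies above the wild-type adult point, while the L1 points of the genotypes lie close together or overlap.

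The type IV collagen genes lay close together in both genotypes. *emb-9* (WBGene00001263, WBcel235 chromosome III, 9336881 to 9344447, minus strand), the alpha-1-like chain, had 1161 and 1218 CPM in *ebax-1* larvae, against 1202 and 1279 CPM in wild-type larvae. The genotypes overlapped, and their difference on the log2 scale, -0.06 with an SE of 0.0889, did not pass (edgeR adjusted p = 0.69). *let-2* (WBGene00002280, chromosome X, 16380597 to 16389340, minus strand), the alpha-2-like chain that assembles with EMB-9, had 1262 and 1286 CPM in *ebax-1* larvae, against 1271 and 1342 CPM in wild-type larvae, a log2 difference of -0.04 (SE 0.0884) at an edgeR adjusted p of 0.814. These values also overlapped. On total count scaling both differences were above 0 (0.10 and 0.12) and did not pass either.

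Among the laminin genes no larval difference passed the test. *lam-1* (chromosome IV, 5173332 to 5183746), the beta chain, had 222 and 228 CPM in *ebax-1* larvae, against 205 and 200 CPM in wild-type larvae. *lam-2* (chromosome X, 7143846 to 7151239), the gamma chain, had 198 and 201 CPM in *ebax-1* larvae, against 218 and 219 CPM in wild-type larvae. Their libraries did not overlap, with *lam-1* on the higher and *lam-2* on the lower side in mutants, yet the log2 fold changes of 0.15 and -0.14 had edgeR adjusted p of 0.258 and 0.297, and that of *lam-2* was 0.02 on total count scaling. Such separation of 2 against 2 libraries held for 6 of the 10 genes and for 56.2% of all tested genes. *epi-1* (chromosome IV, 10666823 to 10679291), the broadly expressed alpha chain, had 387 and 409 CPM in *ebax-1* larvae, against 410 and 423 CPM in wild-type larvae. The alpha chain *lam-3* (chromosome I, 10608466 to 10621435) was scarce, with 89 and 79 counts in *ebax-1* larvae, against 115 and 89 counts in wild-type larvae.

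The single gene called in L1 larvae was *nid-1* (WBGene00003738, chromosome V, 12910107 to 12917221), whose product nidogen links laminin to type IV collagen. It had 63.1 and 65.0 CPM in *ebax-1* larvae, against 78.3 and 75.5 CPM in wild-type larvae. Both mutant libraries lay below both wild-type libraries, and *nid-1* fell by 0.27 on the log2 scale (SE 0.0907, edgeR adjusted p = 0.0469). The call stood at the edge of the threshold and was lost in 8 of 10 alternative analyses, which include leaving out each of the 4 L1 libraries in turn, with adjusted p between 0.0479 and 0.433 over all 10.

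The remaining larval values are those of *unc-52*, *cle-1* and *ost-1*. *unc-52* (chromosome II, 14647321 to 14684456), whose perlecan anchors muscle to the body wall, had 448 and 508 CPM in *ebax-1* larvae, against 446 and 487 CPM in wild-type larvae. *cle-1* (chromosome I, 8705668 to 8724279) had 82.6 and 78.2 CPM in *ebax-1* larvae, against 78.0 and 97.7 CPM in wild-type larvae. *ost-1* (chromosome IV, 1107396 to 1110872), a collagen-binding glycoprotein gene, had 423 and 461 CPM in *ebax-1* larvae, against 412 and 405 CPM in wild-type larvae. *unc-52* and *cle-1* overlapped between genotypes. *ost-1* did not, and its log2 fold change of 0.11 had an edgeR adjusted p of 0.447. With total count scaling the all-gene median became 0.17, and on that scale *lam-1* (0.31, adjusted p = 0.00741) and *ost-1* (0.27, adjusted p = 0.0188) passed the test as higher while *nid-1* (-0.11, adjusted p = 0.433) did not pass.

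Among genes that serve the basement membrane, those for collagen modification had log2 fold changes of up to 0.85 in L1 larvae. Of 6 tested genes of collagen synthesis and secretion, 3 rose and 0 fell. *pdi-2*, the beta subunit of collagen prolyl 4-hydroxylase, had 1054 and 951 CPM in *ebax-1* larvae, against 569 and 537 CPM in wild-type larvae (difference on the log2 scale 0.85, SE 0.0905, edgeR adjusted p = 7.61e-07). *dpy-18*, a catalytic alpha subunit of the same enzyme, had 75.3 and 61.5 CPM in *ebax-1* larvae, against 45.0 and 34.0 CPM in wild-type larvae, a log2 difference of 0.79 (SE 0.123) at an edgeR adjusted p of 9.88e-05. For both subunits the mutant libraries lay above the wild-type libraries. These enzymes also act on cuticle collagens. *tfg-1*, which acts in export from the endoplasmic reticulum, rose with a log2 fold change of 0.40. *let-268*, the lysyl hydroxylase that type IV collagen needs in the worm, had a log2 fold change of 0.41 that did not pass (edgeR adjusted p = 0.169), and the alpha subunit *phy-2* was at -0.01.

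**Figure D2:**
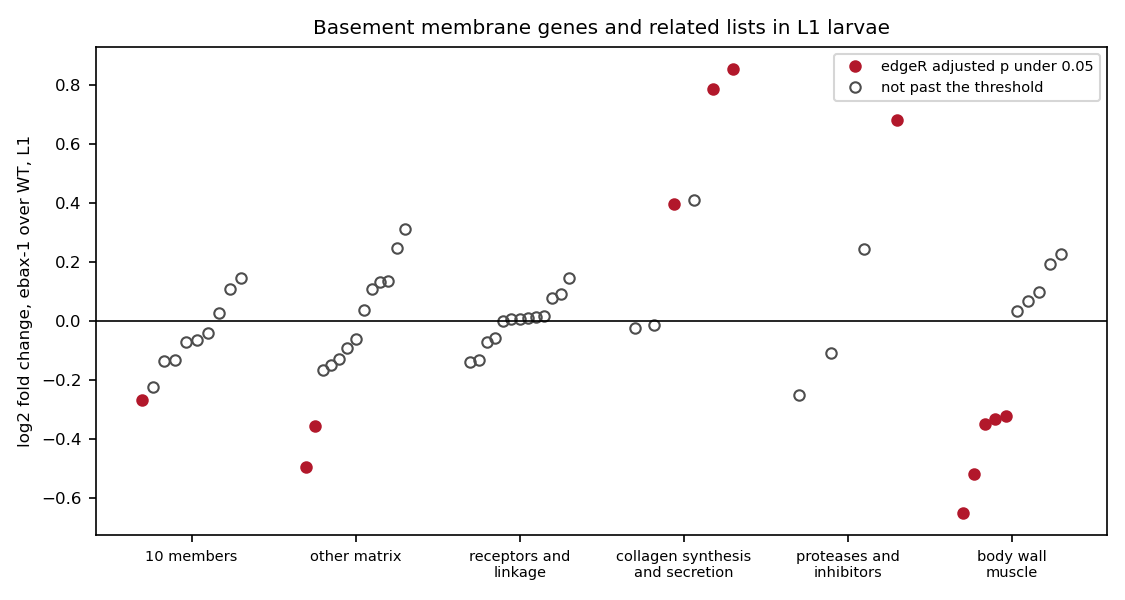
Log2 fold change of *ebax-1* over wild-type L1 larvae (y axis) for the 10 basement membrane genes and for related lists, a point per gene, sorted within each list. Filled red points passed edgeR's test at an adjusted p of 0.05. The 10 genes lie between -0.27 and 0.15 with 1 called, while 3 of 6 collagen synthesis genes are called above 0 and 5 of 10 body wall muscle markers are called below 0.

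Of 13 other matrix genes, 0 rose and 2 fell. They were *dig-1* (log2 fold change -0.36, edgeR adjusted p = 0.0153), which encodes a very large matrix protein, and the transmembrane collagen gene *col-99* (-0.49, edgeR adjusted p = 0.0314). Of 13 genes for receptors and their cytoplasmic partners, which include the integrins *pat-2*, *pat-3* and *ina-1* and dystroglycan *dgn-1*, 0 passed, and their log2 fold changes ran from -0.14 to 0.15. Of 4 protease and inhibitor genes, *zmp-1*, a matrix metalloproteinase gene, rose (0.68, edgeR adjusted p = 0.018) and 0 fell. Of 10 body wall muscle markers 5 fell and 0 rose, while the other 5 had log2 fold changes above 0 that did not pass. The summed level of all 10 was 19100 and 22150 CPM in *ebax-1* larvae, against 24850 and 28090 CPM in wild-type larvae, with 0 markers at 0. Of these sums *unc-54* alone held 9544 and 10970 CPM in *ebax-1* larvae, against 13570 and 15710 CPM in wild-type larvae. Of 10 oocyte and early embryo markers 6 rose and 0 fell, and they summed to 201 and 146 CPM in *ebax-1* larvae, against 83.0 and 82.5 CPM in wild-type larvae. In whole worms, fewer cells of a type and less RNA per cell cannot be told apart, and the part of either marker group in the larval values was not tested.

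In adults all 10 basement membrane transcripts were higher in the *ebax-1* library than in the wild-type library. A log2 fold change above 0 was seen for 49.6% of the 13563 genes measured. The 10 genes summed to 2284 CPM in the mutant, against 1528 CPM in wild type. Their log2 fold changes ran from 0.19 to 1.03 with a median of 0.59, and the median of all measured genes was -0.0032. At least a 1.5-fold rise was seen for 5 of the 10, where 8.83% of all measured genes reached it. Adult log2 fold changes and ratios were scaled with TMM over the adult libraries alone, while CPM were scaled over all 6 libraries. The ratios therefore lie slightly above the quotients of the CPM printed beside them. A single adult library per genotype leaves these values without a replicate check. The intervals that follow are 95% exact binomial intervals that cover counting error only.

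**Figure D3:**
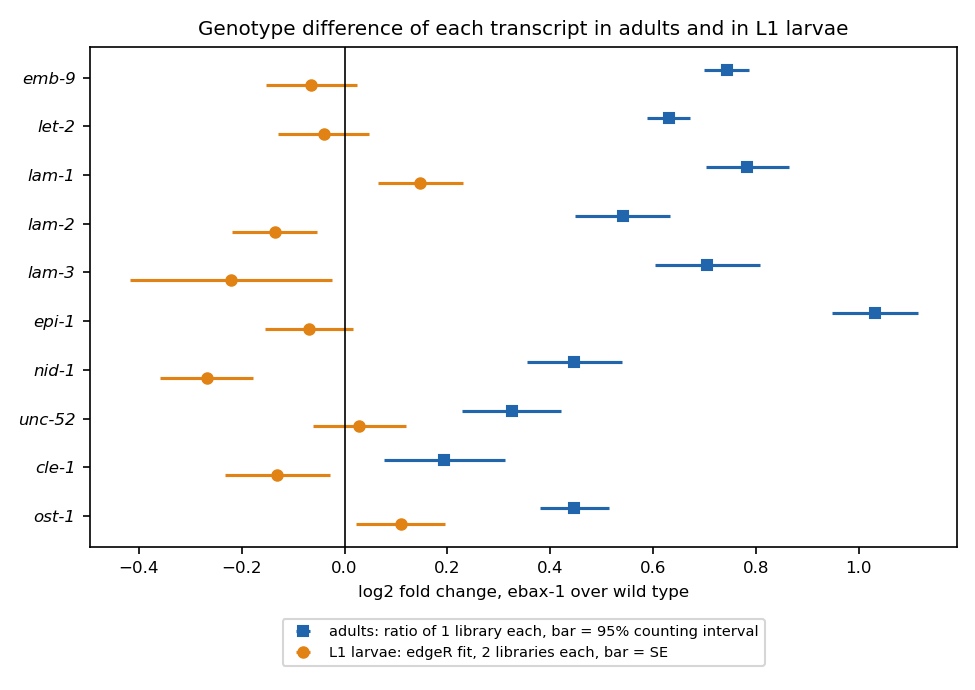
Log2 fold change of *ebax-1* over wild type (x axis) for each basement membrane gene. Blue squares are adults (1 library each, bars are 95% counting intervals) and orange circles are L1 larvae (edgeR fit of 2 libraries each, bars are SE). All 10 squares lie right of 0, from *cle-1* at 0.19 to *epi-1* at 1.03, while the circles lie between -0.27 and 0.15.

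*emb-9* had 8491 counts in the mutant adult library, against 8094 counts in the larger wild-type adult library, which after scaling is 568 CPM against 352 CPM and a ratio of 1.67 (1.62 to 1.73). *let-2* had 620 CPM in mutant adults, against 416 CPM in wild-type adults, a ratio of 1.55 (1.5 to 1.59). The collagen chains thus differed between genotypes by similar factors, although their intervals did not overlap. *epi-1* had the largest ratio of the 10, with 177 CPM in mutant adults, against 90.0 CPM in wild-type adults, or 2.04 (1.93 to 2.17). *lam-1* had 173 CPM in mutant adults, against 104 CPM in wild-type adults (ratio 1.72, 1.63 to 1.82). *lam-1* lies in the piRNA-rich stretch of chromosome IV whose neighbouring coding genes the adult libraries were made to examine. The study reports those coding genes as unchanged in expression without *ebax-1*, and its text does not name *lam-1*. Whether the place of *lam-1* there bears on its value was not tested. *lam-3* had 106 CPM in mutant adults, against 67.4 CPM in wild-type adults (ratio 1.63, 1.52 to 1.75), and *lam-2* had 120 CPM in mutant adults, against 85.9 CPM in wild-type adults (ratio 1.46, 1.36 to 1.55).

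The genes outside the collagen IV and laminin families had adult ratios of 1.14 to 1.36. *nid-1* stood at 118 CPM in mutant adults, against 90.0 CPM in wild-type adults (ratio 1.36, 1.28 to 1.45), and *ost-1* at 228 CPM in mutant adults, against 174 CPM in wild-type adults (ratio 1.36, 1.30 to 1.43). *unc-52* had 107 CPM in mutant adults, against 88.3 CPM in wild-type adults (ratio 1.25, 1.17 to 1.34). *cle-1* had 67.0 CPM in mutant adults, against 60.8 CPM in wild-type adults (ratio 1.14, 1.05 to 1.24). The intervals of *nid-1* and *ost-1* overlapped that of *lam-2*, and no difference between these gene groups was tested.

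Other matrix genes leaned the same way in adults, with 11 of 13 above 0 and a median of 0.53. The agrin gene *agr-1* (1.15) and the hemicentin gene *him-4* (0.92) were among them, and the fibulin gene *fbl-1* (-1.03) went the other way, with 26.0 CPM in mutant adults, against 55.2 CPM in wild-type adults. Receptor and linkage genes were above 0 in 12 of 13 cases with a median of 0.27, and 0 reached 1.5-fold. Collagen synthesis and secretion genes were above 0 in 2 of 7 cases, with *pdi-2* at -0.04 and *dpy-18* at -0.01. Body wall muscle markers were above 0 in 9 of 10 cases with a median of 0.44, and summed to 3794 CPM in mutant adults, against 2907 CPM in wild-type adults, with 0 markers at 0. Oocyte and embryo markers summed to 4088 CPM in mutant adults, against 4289 CPM in wild-type adults. The part of muscle or germline content in the adult values was not tested.

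Whether the genotype difference itself differed between stages was asked with an interaction term over all 6 libraries. The difference was larger in adults than in L1 larvae for 7 of the 10 genes at an edgeR adjusted p of 0.05, where 4.49% of 16376 genes passed in that direction. *epi-1* led, at 1.04 on the log2 scale (SE 0.154, edgeR adjusted p = 1.97e-05), and *emb-9* followed by adjusted p, at 0.75 (SE 0.156, edgeR adjusted p = 0.00155). *let-2*, *lam-1*, *lam-2*, *lam-3* and *nid-1* passed with values of 0.61, 0.58, 0.62, 0.87 and 0.66. *unc-52* (0.24), *cle-1* (0.27) and *ost-1* (0.28) did not pass, with adjusted p of 0.437, 0.414 and 0.307. The spread in this fit comes from the L1 pairs alone, each lone adult library is assumed to vary like them, and mutant strain cannot be told apart from stage. *emb-9* and *epi-1* passed in all 8 alternatives run, whereas DESeq2 called 3 of the 10, and 4 were called without wild-type L1 replicate 1. Without wild-type L1 replicate 2, *let-2* (adjusted p = 0.146) and *lam-1* (adjusted p = 0.0585) did not pass.

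Among related genes, *him-4* (1.01), *agr-1* (1.15), *dig-1* (0.83) and *col-99* (1.32) passed the interaction test with a larger value in adults, and *fbl-1* passed with a lower one (-1.0). In the collagen synthesis list, *pdi-2* (-0.96), *dpy-18* (-0.85) and *tfg-1* (-0.80) passed with a lower genotype difference in adults. Their log2 fold changes of *ebax-1* over wild type were 0.85, 0.79 and 0.40 in L1 larvae. In adults they were -0.04, -0.01 and -0.34. Of 10 body wall muscle markers, 6 passed with a larger value in adults, led by *tnt-2* (1.13) and *unc-54* (1.02). Of 13 receptor and linkage genes, the talin gene *tln-1* (0.55) and the kindlin gene *unc-112* (0.52) passed with a larger value in adults.

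Between stages the 10 genes did not move as a block. By the test, 8 were lower in adults and 2 were higher in adults (edgeR, genotype in the model), where 41.4% of the 16376 tested genes were lower and 43.8% were higher. For all 10 the adult libraries lay wholly above or below the L1 libraries, as they did for 85.6% of all tested genes. *unc-52* fell most, with 107 and 88.3 CPM in mutant and wild-type adults, against 446 to 508 CPM in L1 larvae (log2 fold change -2.28, SE 0.122, edgeR adjusted p = 1.29e-07). *epi-1* (-1.66), *emb-9* (-1.43), *let-2* (-1.34), *ost-1* (-1.09), *lam-2* (-1.03) and *lam-1* (-0.66) also fell. These values average the genotypes, and the size of the stage difference depended on which was used. For *epi-1* it was -1.17 in mutant libraries alone and -2.16 in wild-type libraries alone, for *emb-9* -1.06 and -1.77, for *let-2* -1.04 and -1.60, for *lam-2* -0.73 and -1.30, and for *lam-1* -0.38 and -0.91. *cle-1* (-0.40, edgeR adjusted p = 0.0124) passed here but not with DESeq2 (adjusted p = 0.119), with total count scaling (0.193), or in mutant libraries alone (0.068). The muscle marker sum was 3794 and 2907 CPM in adults, against 19100 to 28090 CPM in L1 larvae, and the oocyte and embryo marker sum was 4088 and 4289 CPM in adults, against 82.5 to 201 CPM in L1 larvae. Their part in the stage differences was not tested. Of the other matrix genes 10 of 13 were lower in adults, among them *dig-1* (-3.99) and *him-4* (-3.0), and *pxn-1* was higher (0.75). Of the receptor and linkage genes 11 of 13 were lower and the integrin alpha gene *ina-1* was higher (0.68), while the collagen synthesis genes divided into 4 higher and 3 lower.

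**Figure D4:**
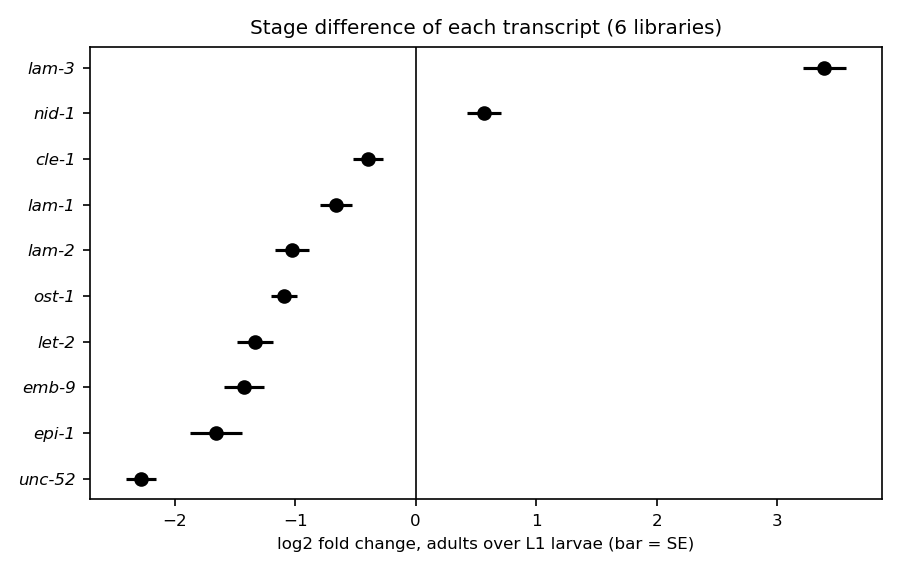
Log2 fold change of adults over L1 larvae (x axis, bars are SE) for each basement membrane gene, from the edgeR fit of 6 libraries. *lam-3* at 3.39 and *nid-1* at 0.57 lie right of 0, and the other 8 lie left of it, down to *unc-52* at -2.28.

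*lam-3* and *nid-1* were the genes higher in adults. *lam-3* had 106 and 67.4 CPM in mutant and wild-type adults, against 7.36 to 9.46 CPM in L1 larvae, and rose 10.5-fold (log2 fold change 3.39, SE 0.179, edgeR adjusted p = 1.19e-07). *nid-1* had 118 and 90.0 CPM in adults, against 63.1 to 78.3 CPM in L1 larvae and was higher in adults by 0.57 on the log2 scale (SE 0.139, edgeR adjusted p = 0.00374). In mutant and wild-type libraries alone the values were 3.82 and 3.00 for *lam-3* and 0.89 and 0.28 for *nid-1*. The pharynx is a known site of LAM-3, and 6 of 6 pharyngeal muscle markers were lower in adults. Of 7 gonadal sheath and spermatheca markers, 3 were higher in adults (*inx-8* 8.22, *inx-9* 6.17 and *sth-1* 8.26 on the log2 scale). These stood at or below 0.741 CPM in each L1 library. Another 3 were lower in adults (*plc-1* -2.91, *ceh-18* -2.40 and *lim-7* -1.64). The part of either tissue in the *lam-3* values was not tested. Per coding length, *epi-1* was 36.2 to 46.4 times as abundant as *lam-3* in L1 libraries and 1.40 and 1.11 times as abundant in mutant and wild-type adults.

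**Figure D5:**
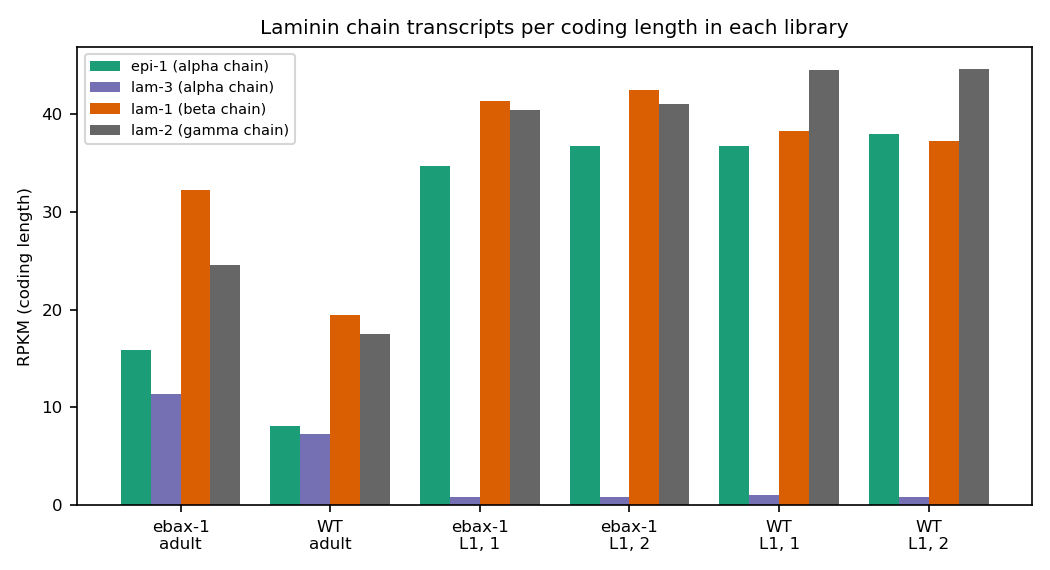
Laminin chain transcripts in each of the 6 libraries as RPKM (y axis from 0). In L1 libraries *epi-1*, *lam-1* and *lam-2* stand between 34.7 and 44.6 RPKM and *lam-3* at or below 1.02 RPKM, while in adults *lam-3* (11.4 and 7.24 RPKM) stands near *epi-1* (15.9 and 8.08 RPKM).

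A laminin trimer holds a single chain of each kind, and the transcript ratios per coding length lay near 1. The alpha chains together over the gamma chain *lam-2* gave RPKM ratios of 1.11 and 0.874 in mutant and wild-type adults and 0.848 to 0.915 in L1 larvae. The beta chain *lam-1* over *lam-2* gave 1.31 in mutant adults and 1.11 in wild-type adults. In L1 larvae this ratio was 1.03 and 1.04 in *ebax-1* libraries, against 0.859 and 0.835 in wild-type libraries. For type IV collagen, *emb-9* over *let-2* gave 0.935 and 0.865 in mutant and wild-type adults, and 0.939 to 0.972 in the 4 L1 libraries. In each of the 6 libraries *let-2* was thus slightly the more abundant of the pair.

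Per coding length the order of the genes differed between stages below its top. *ost-1* led with 219 to 288 RPKM in adults and 511 to 582 RPKM in L1 larvae. *let-2* and *emb-9* came next, with 66.8 to 115 RPKM in adults and 220 to 249 RPKM in L1 larvae. Their ranges overlapped in both stages, although *let-2* was the higher in each library. In L1 larvae *lam-2*, *lam-1*, *epi-1* and *unc-52* followed between 34.3 and 44.6 RPKM, each overlapping the next, and then *cle-1*, *nid-1* and *lam-3* with no overlap. In adults *lam-1*, *nid-1* and *lam-2* followed between 17.5 and 32.2 RPKM. Below them came *cle-1*, *epi-1*, *lam-3* and *unc-52* between 6.79 and 16.9 RPKM. They stood in this order in both adult libraries, although each range over the genotypes overlapped the next.

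Over the 6 libraries the transcripts whose log2 CPM followed *emb-9* most closely, apart from the 10 genes, were *T23F2.2*, *T02G5.14*, *C48E7.6*, *ttyh-1* and *F07A5.4*, each with Pearson r of 0.9995 or above. Of the 10 genes, *let-2* ranked at place 6 of 16375 with r of 0.9994, *epi-1* at 16 and *lam-2* at 30, while *nid-1* (r of -0.71) and *lam-3* (r of -0.92) ran the other way. The libraries of a stage stand close together, so such values describe mostly the gap between stages and in part the order of the 2 adult libraries.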

How the data were processed

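The authors deposited a table of raw counts per gene. Per the study's methods, stranded 50 nt single-end reads were aligned to genome release WS245 (WBcel235) with STAR 2.7.1a, keeping those with a single alignment, and featureCounts summed them over coding sequence by strand. The values therefore hold no reads from untranslated regions, nor reads that near-identical copies share. All 10 genes were found by symbol, had no coding overlap on their strand (Ensembl WBcel235 annotation) and passed every filter. Coding lengths for RPKM came from that annotation, which had one for 19620 of 20447 genes.

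Tests were run in R 4.3.3 with edgeR 4.0.16 (filterByExpr at a minimum count of 10, TMM, two-sided quasi-likelihood F-test, Benjamini-Hochberg over all tested genes, threshold 0.05). L1 genotypes were fitted on 4 libraries, and stage (with genotype) and the interaction on 6. The study calls the L1 libraries biological replicates. The p-values of the L1 fit measure the spread between these few libraries. In the stage fit the residual also holds the disagreement of the genotypes on the stage difference. In the interaction fit the spread is that of the L1 pairs alone. Adults were compared without a test: CPM (TMM over the adult libraries alone, prior count 1) was used for genes whose adult counts summed to 50 or more. Alternatives were DESeq2 1.42.0, other scaling, no filter, leaving out each L1 library, a replicate block, other sample sets and, chosen after seeing the data, the stage comparison in mutant libraries alone. The fits were tested on simulated data. The named genes were the 10 genes, *ebax-1*, up to 3 called genes per list with the smallest adjusted p, and the 5 genes most like *emb-9*. Other list genes given with values were chosen after their values were seen. The 10 genes and the lists were chosen with earlier results of these data known.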

Additional observations from a re-analysis of the deposited data

Results flagged for a closer look

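For 7 of the 10 genes the genotype effect differed between stages by the interaction test (edgeR), where 4.49% of 16376 genes passed in the same direction. DESeq2 called 3 of the 10, and 4 were called without wild-type L1 replicate 1. The effect in adults minus that in L1 larvae, on the log2 scale, was 1.04 for *epi-1*, 0.87 for *lam-3*, 0.75 for *emb-9*, 0.66 for *nid-1*, 0.62 for *lam-2*, 0.61 for *let-2* and 0.58 for *lam-1*. In each case the mutant adult library was higher than the wild-type adult library, and in L1 larvae only *nid-1* passed the test, as lower in mutants. The adult values rest on 1 library per genotype, and strain FX02321 was used in adults where CZ9907 was used in L1 larvae.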

How the results depend on the processing

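In L1 larvae 1 of the 10 genes and 2278 of all genes were called. Of the 10, 2 were called with total count scaling (*lam-1* and *ost-1*, not *nid-1*), and 0 with DESeq2, with the 6-library fit, or without any 1 library (0 to 0). All genes called numbered 1325 with DESeq2 and 1359 to 2396 without 1 library (1470 and 1359 when wild-type replicate 1 or 2 was left out). Over all 13756 genes together, the deviations of libraries with the same replicate number were not correlated between genotypes (r = -0.01). Whether some genes shared a replicate shift was not tested. With a replicate block 2249 genes and 0 of the 10 were called, and *nid-1* had an edgeR adjusted p of 0.0537. For the interaction, DESeq2 called 3 of the 10 and 449 of all genes, against 7 and 1499 with edgeR, and without 1 library 4 to 7 of the 10 were called (4 without wild-type L1 replicate 1). *let-2* was lost without either wild-type replicate, *lam-1* in 3 alternatives, *lam-3* in 2, and *lam-2* and *nid-1* with DESeq2. In stage only *cle-1* lost its call, in 4 of 11 alternatives, while sizes differed between the genotypes fitted alone. The adult counts of 10 above 0 and 5 at 1.5-fold held in every alternative run, all of which scaled the adult libraries alone. On the 6-library CPM scale *let-2*, at 620 CPM in mutant adults against 416 CPM in wild-type adults, fell just short of 1.5-fold. The causes were not tested. *lam-3* had the lowest L1 counts of the 10, at 79 to 115 per library.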

Other observations

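Of 10 oocyte and early embryo markers 6 rose in *ebax-1* L1 larvae and 0 fell, where 6.59% of the 13756 genes tested rose and 9.97% fell. The list median was 0.88 on the log2 scale. The *ebax-1* libraries differed, with list sums of 201 and 146 CPM, against 83.0 and 82.5 CPM in wild-type larvae. *mex-5* (log2 fold change 1.25), *mex-6* (1.5) and *spn-4* (1.23), maternal genes of the early embryo, rose in *ebax-1* larvae with edgeR adjusted p of 1.2e-06, 2.19e-06 and 4.36e-06. *fkh-6*, a forkhead gene of the somatic gonad, had 1.80 and 1.77 CPM in *ebax-1* larvae, against 7.32 and 8.46 CPM in wild-type larvae, and fell by 2.14 on the log2 scale (edgeR adjusted p = 7.87e-06). It was the only 1 called of 4 tested gonadal sheath and spermatheca markers, whose median log2 fold change was -0.08. In adults *fkh-6* had 7.43 CPM in the mutant, against 6.53 CPM in wild type.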
